A study of Mus musculus with 8 samples.

Results

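The 10 genes of the temperature response described here, 8 heat shock and 2 cold-inducible genes, were followed through 8 mouse liver libraries read by nanopore direct RNA sequencing. The cytosolic heat shock genes were Hspa8, Hspa1b, Hsp90aa1, Hsp90ab1, Hsph1, Dnaja1, Dnajb1 and Hspb1, and the cold-inducible genes were Cirbp and Rbm3. The 10 genes were listed by name, with earlier results of these data known, and all of them were found among the 27453 genes listed and among the 6759 genes with enough reads to be tested. In direct RNA sequencing native polyadenylated molecules pass through a pore, so a read stands for a molecule. Levels are given as CPM, the count of reads of a gene over all reads in tested genes, scaled for library composition (counts-per-million). CPM is not adjusted for transcript length, so levels are compared between libraries and not between genes.

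The libraries came from livers of C57BL/6JN mice, an inbred strain, and no agent or transgene is stated for either group. The treatment label of all 8 samples only calls the old mice the treated ones. O-titled livers came from 2 males (replicates 1 and 2) and 2 females (replicates 3 and 4), and Y-titled livers likewise from 2 males (replicates 1 and 2) and 2 females (replicates 3 and 4), each a separate animal by the numbers in the files. By their age labels O-titled mice were 12 weeks old and Y-titled mice 80 weeks old, while the series text sets young mice of about 2 months against old mice of about 18 months, so which title group is old cannot be told apart from these labels. The groups are therefore named by title, and no direction below is a direction of ageing. The hour of collection, feeding and body temperature of the mice are not given in the labels.

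Heat shock proteins are chaperones that bind unfolded or partly folded proteins. HSP70 and its DNAJ partners take up client proteins, HSP110 helps HSP70 release nucleotide, HSP90 completes the folding of signalling proteins, and small heat shock proteins hold aggregating proteins for refolding. Transcription of the inducible members is driven by heat shock factor 1, which binds repeats of nGAAn in their promoters. CIRBP and RBM3 are closely related RNA-binding proteins whose mRNAs accumulate on mild cooling, and in mouse liver their levels follow the daily rhythm of body temperature, against the phase of several heat shock genes.

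The coding sequences of the 2 cold-inducible genes are shown because Rbm3 passed the test between the title groups and its relative Cirbp did not. The first 180 coding bases of each, from GENCODE M21 on GRCm38 (mm10), span exons within chrX:8144603-8145057 on the minus strand for Rbm3-206 and within chr10:80169814-80170092 on the plus strand for Cirbp-202, and encode the start of the RNA recognition motif. Capitals mark the bases that are identical at the same position in both, 127 of 180 or 70.6%.
Rbm3-206: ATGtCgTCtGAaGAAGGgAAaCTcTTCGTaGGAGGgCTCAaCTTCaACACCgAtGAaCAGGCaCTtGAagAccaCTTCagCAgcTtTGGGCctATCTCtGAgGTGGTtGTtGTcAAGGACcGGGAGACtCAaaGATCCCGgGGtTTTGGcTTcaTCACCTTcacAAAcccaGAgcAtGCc
Cirbp-202: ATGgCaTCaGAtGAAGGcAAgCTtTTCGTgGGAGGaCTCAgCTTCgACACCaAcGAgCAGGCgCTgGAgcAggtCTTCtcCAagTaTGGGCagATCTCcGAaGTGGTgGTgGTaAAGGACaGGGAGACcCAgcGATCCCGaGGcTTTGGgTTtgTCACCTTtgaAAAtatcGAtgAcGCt
Over the aligned full coding sequences, of 459 bases in Rbm3-206 and 516 in Cirbp-202, identity was 61.9%, counting gaps as differences.

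Promoter windows were looked up for the 10 genes in RefSeq (GRCm38.p6), and 6 of the 10 had an entry: Dnaja1, Dnajb1, Hspb1, Hsph1, Hspa1b and Cirbp. In the 250 bases upstream of each start, 4 motifs were searched on both strands. They were a facing double heat shock element, GAANNTTC, a back-to-back double, TTCNNGAA, a triple that joins both (GAANNTTC followed directly by NNGAA), and the mild-cold response element, TCCCCGCC, reported upstream of Cirbp. The triple element occurred in 0.466% of 32851 mouse windows, the facing double in 6.69%, the back-to-back double in 7.17% and the mild-cold element in 4.64%, and the doubles are parts of the triple. The windows of Hspa1b and Hspb1 are printed as inducible heat shock promoters and that of Cirbp for its mild-cold element, with every match in capitals.
Hspa1b, chr17:34959239-34959488, minus strand: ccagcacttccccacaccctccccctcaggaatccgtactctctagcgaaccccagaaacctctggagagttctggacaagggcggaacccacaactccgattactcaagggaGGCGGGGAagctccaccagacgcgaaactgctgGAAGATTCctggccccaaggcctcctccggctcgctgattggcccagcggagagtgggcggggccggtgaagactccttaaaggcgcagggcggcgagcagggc
Hspb1, chr5:135887669-135887918, plus strand: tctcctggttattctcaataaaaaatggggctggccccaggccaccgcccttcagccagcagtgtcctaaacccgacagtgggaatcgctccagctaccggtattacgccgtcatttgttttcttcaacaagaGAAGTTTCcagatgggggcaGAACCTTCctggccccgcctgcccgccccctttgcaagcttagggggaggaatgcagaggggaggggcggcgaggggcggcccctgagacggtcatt
Cirbp, chr10:80167589-80167838, plus strand: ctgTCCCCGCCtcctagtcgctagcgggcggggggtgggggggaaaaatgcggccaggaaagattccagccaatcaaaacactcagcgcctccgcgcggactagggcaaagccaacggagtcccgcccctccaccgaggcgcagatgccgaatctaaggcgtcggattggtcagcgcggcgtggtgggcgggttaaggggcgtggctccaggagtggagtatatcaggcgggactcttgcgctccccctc
Hspa1b held a facing double 104 bases upstream of the start and the reverse complement of the mild-cold element, GGCGGGGA, 137 bases upstream. Hspb1 held facing doubles 117 and 97 bases upstream, and the printed window of Cirbp held the mild-cold element 247 bases upstream, while its other window had no match. Hsph1 had a back-to-back double, the same site in both of its overlapping windows. Of the 3 windows of Dnaja1, 1 had a facing double and the other 2, which overlap, held the same mild-cold element. Dnajb1 had no match, and no window of these 6 genes held the triple. These matches are letters in a window, not measured binding.

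Libraries held between 792004 and 2593200 mapped reads in the O-titled group and between 545171 and 1722220 in the Y-titled group, and 3 reads corresponded to between 1.16 and 5.50 CPM of mapped reads. Summed markers of 7 liver and blood cell types were present in every library, with none of the defining markers at 0 throughout. In O-titled livers hepatocyte markers summed to between 72721 and 102806 CPM, against 80438 to 119581 CPM in Y-titled livers. Of 7 tested markers 0 were called (limma voom called 1), and 4 had an unadjusted edgeR p under 0.05, against 16.2% of all tested genes. In the fit within females 3 of the 7 were called lower in O-titled livers, against 2.74% of all tested genes. Ttr and Hnf4a, named after their values were seen, were lower in every O-titled liver. Ttr had 7198 to 10264 CPM, against 10569 to 12352 CPM, and Hnf4a 205 to 228 CPM, against 234 to 318 CPM. Summed stellate cell and fibroblast markers stood apart, at 219 to 272 CPM in O-titled livers, against 148 to 199 CPM in Y-titled livers. Of 5 tested markers 1 was called, Dcn, beside 4.01% of all tested genes. Most of this sum was Dcn, with 159 to 191 CPM in O-titled livers, against 89.1 to 143 CPM in Y-titled livers. Lrat also lay higher in every O-titled liver. Reln, Col1a1, Col1a2, Col3a1 and Des overlapped, and the median of Col3a1 was lower in O-titled livers. Kupffer cell markers ran from 386 to 1053 CPM in O-titled and from 424 to 502 CPM in Y-titled livers, with 0 of 8 tested markers called. DESeq2 called 1 and limma voom 0, and 5 had an unadjusted edgeR p under 0.05, against 16.2% of all tested genes. All 8 had a positive log2 fold change of O-titled over Y-titled livers, with a median of 0.75 beside -0.00095 over all tested genes. Sinusoidal endothelial markers ran from 199 to 265 CPM in O-titled livers, against 156 to 238 CPM in Y-titled livers, with 1 of 6 tested markers called, Fcgr2b (DESeq2 called 0 of the 6). Lyve1 of the same list, under the count filter and named after its values were seen, ran the other way, at 3.08 to 4.03 CPM in O-titled livers, against 5.39 to 11.02 CPM in Y-titled livers. In whole liver, fewer cells of a type and less RNA per cell cannot be told apart, and the part of cell composition in the results below was not tested.

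Of the 10 genes, Rbm3 was higher in O-titled than in Y-titled livers, and the other 9 did not pass the test. Rbm3 is an RNA-binding protein of mild hypothermia that lies on chrX:8138975-8145880 on the minus strand (mm10). It had 116, 95.4, 111 and 93.1 CPM in O-titled replicates 1 to 4, against 52.2, 43.6, 23.9 and 40.4 CPM in Y-titled replicates 1 to 4. All 4 O-titled livers lay above all 4 Y-titled livers. These levels rest on 303, 71, 128 and 133 reads in O-titled livers, against 83, 22, 26 and 45 reads in Y-titled livers. The means were 104.0 ± 11.5 CPM in O-titled livers, against 40.0 ± 11.9 CPM in Y-titled livers (SD, n = 4 each), a 2.61-fold difference. With sex in the model the log2 fold change was 1.38 (SE 0.174, edgeR quasi-likelihood adjusted p = 0.000113). This count of 1 called gene among 10 stands beside 4.01% of all tested genes called, 2.09% higher and 1.92% lower. Ranges that did not overlap were found for 1 of the 10 genes, in the higher direction, against 4.1% of all tested genes higher and 4.62% lower.

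**Figure D1:**
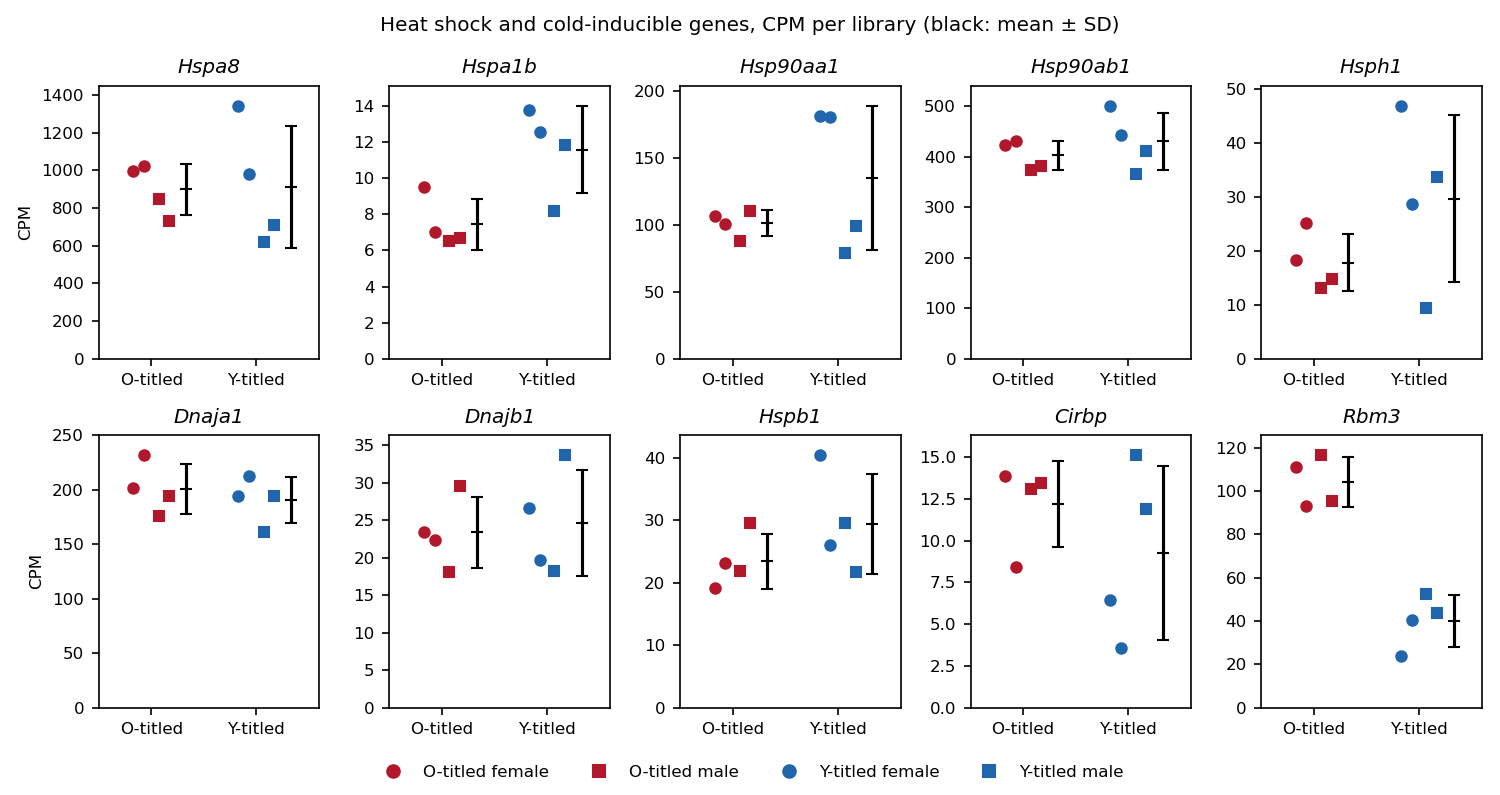
CPM of each of the 10 genes in every library, O-titled left of Y-titled in each panel, females as circles and males as squares, with the mean ± SD (n = 4) in black; each panel has its own axis from 0. Rbm3 is the panel where the O-titled libraries, 93.1 to 116 CPM, lie above all Y-titled libraries, 23.9 to 52.2 CPM.

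Cirbp, the relative of Rbm3, overlapped between the groups. It had 13.1, 13.4, 13.9 and 8.40 CPM in O-titled replicates 1 to 4, against 15.1, 11.9, 6.43 and 3.59 CPM in Y-titled replicates 1 to 4. The Y-titled females were the lowest of the 8 libraries, with 7 and 4 reads, and the Y-titled males lay with the O-titled livers. The means were 12.2 ± 2.55 CPM in O-titled livers, against 9.25 ± 5.20 CPM in Y-titled livers (SD, n = 4 each). The log2 fold change was 0.35 (SE 0.322, edgeR adjusted p = 0.665). Cirbp was counted from 72 reads in O-titled and 41 reads in Y-titled livers, so differences could be missed at this depth. The smallest detectable difference was not computed for Cirbp.

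None of the 8 heat shock genes passed the test between O-titled and Y-titled livers, and none had an unadjusted p under 0.05 in edgeR, where the lowest was 0.0602. DESeq2 and limma voom also called 0 of the 8. Among all tested genes 16.2% had an unadjusted p of 0.05 or less. The 8 log2 fold changes had a median of -0.23, with 6 negative and 2 positive, beside a median of -0.00095 over all tested genes. A missed threshold does not show that the groups had equal levels.

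The HSP70 genes were Hspa8, the constitutive cytosolic chaperone HSC70 (chr9:40800984-40810087, plus strand), and Hspa1b, a stress-induced HSP70 (chr17:34956436-34959238, minus strand). Hspa8 had 849, 729.5, 997 and 1024 CPM in O-titled replicates 1 to 4, against 621, 709, 1341 and 980.2 CPM in Y-titled replicates 1 to 4. In both title groups the females, replicates 3 and 4, lay above the males, and the title groups overlapped throughout, with a log2 fold change of 0.02 (SE 0.129, edgeR adjusted p = 0.970). Hspa1b had 6.53, 6.72, 9.55 and 7.00 CPM in O-titled livers, against 8.18, 11.9, 13.8 and 12.6 CPM in Y-titled livers. Y-titled replicates 2, 3 and 4 lay above every O-titled library, and Y-titled replicate 1 lay below O-titled replicate 3. The log2 fold change of Hspa1b was -0.59 (SE 0.295, edgeR adjusted p = 0.345), from 43 reads in O-titled and 48 reads in Y-titled livers. Hspa1b shares 99.4% of its coding bases with Hspa1a, which was assigned 1 read in O-titled and 2 reads in Y-titled livers. How reads matching both were assigned is not given in the sources used here, so values of Hspa1b are uncertain.

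HSP90 is made from a gene pair. Hsp90aa1, the inducible alpha form (chr12:110690605-110702728, minus strand), had 88.0, 110.2, 107 and 101 CPM in O-titled replicates 1 to 4, against 79.3, 99.0, 182 and 180.4 CPM in Y-titled replicates 1 to 4. The Y-titled females stood apart from the other 6 libraries, none of which exceeded 110.2 CPM. Its log2 fold change over all libraries was -0.36 (SE 0.177, edgeR adjusted p = 0.340). Hsp90ab1, the constitutive beta form (chr17:45567775-45573271, minus strand), had 373, 382, 423 and 431 CPM in O-titled livers, against 366, 412, 499.8 and 443 CPM in Y-titled livers. Its groups overlapped, with a log2 fold change of -0.09 (SE 0.103, edgeR adjusted p = 0.742). The ratio of Hsp90aa1 to Hsp90ab1 CPM was 0.236, 0.289, 0.253 and 0.234 in O-titled livers, against 0.216, 0.240, 0.364 and 0.408 in Y-titled livers. The Y-titled females were again the libraries above the rest. The coding sequences of Hsp90aa1-201 and Hsp90ab1-201 are identical at 75.3% of aligned positions.

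Hsph1, the HSP110 that exchanges nucleotide on HSP70, had 13.1, 14.8, 18.2 and 25.2 CPM in O-titled replicates 1 to 4, against 9.44, 33.7, 46.9 and 28.7 CPM in Y-titled replicates 1 to 4. Y-titled replicates 2, 3 and 4 lay above all O-titled libraries and replicate 1 below them, so the Y-titled group was the more spread, at 17.8 ± 5.37 CPM in O-titled livers, against 29.7 ± 15.5 CPM in Y-titled livers (SD, n = 4 each). The log2 fold change was -0.58 (SE 0.312, edgeR adjusted p = 0.405).

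The DNAJ co-chaperones, which deliver clients to HSP70 and stimulate its ATPase, lay close together between the groups. Dnaja1 had 176, 195, 201 and 232 CPM in O-titled replicates 1 to 4, against 161, 194, 195 and 213 CPM in Y-titled replicates 1 to 4. Dnajb1, a classic heat-induced member, had 18.1, 29.6, 23.4 and 22.4 CPM in O-titled livers, against 18.3, 33.7, 26.6 and 19.7 CPM in Y-titled livers. The ranges of both genes overlapped, those of Dnajb1 almost in full. The log2 fold changes were 0.08 for Dnaja1 (SE 0.113) and -0.05 for Dnajb1 (SE 0.235), with edgeR adjusted p = 0.806 and 0.964.

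Hspb1, the small heat shock protein HSP25, had 21.9, 29.6, 19.1 and 23.1 CPM in O-titled replicates 1 to 4, against 29.6, 21.8, 40.4 and 26.0 CPM in Y-titled replicates 1 to 4. The highest library was a Y-titled female and the rest were interleaved. The log2 fold change was -0.40 (SE 0.215, edgeR adjusted p = 0.383).

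Summed over the 8 heat shock genes, CPM averaged 1676 ± 182 in O-titled and 1764 ± 462 in Y-titled livers (SD, n = 4 each). The sum of Cirbp and Rbm3 averaged 116 ± 13.2 CPM in O-titled livers, against 49.3 ± 15.8 CPM in Y-titled livers. The ratio of the heat shock sum to the cold-inducible sum was 11.9, 13.8, 14.4 and 18.4 in O-titled replicates 1 to 4, against 19.2, 27.3, 77.4 and 43.3 in Y-titled replicates 1 to 4. No O-titled ratio reached the lowest Y-titled one, and Rbm3 supplied most of the cold-inducible sum. Rbm3 per 100 CPM of heat shock genes ran from 4.99 to 7.54 in O-titled and from 1.02 to 4.04 in Y-titled livers. These ratios are descriptions of members chosen by name and carry no test.

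**Figure D2:**
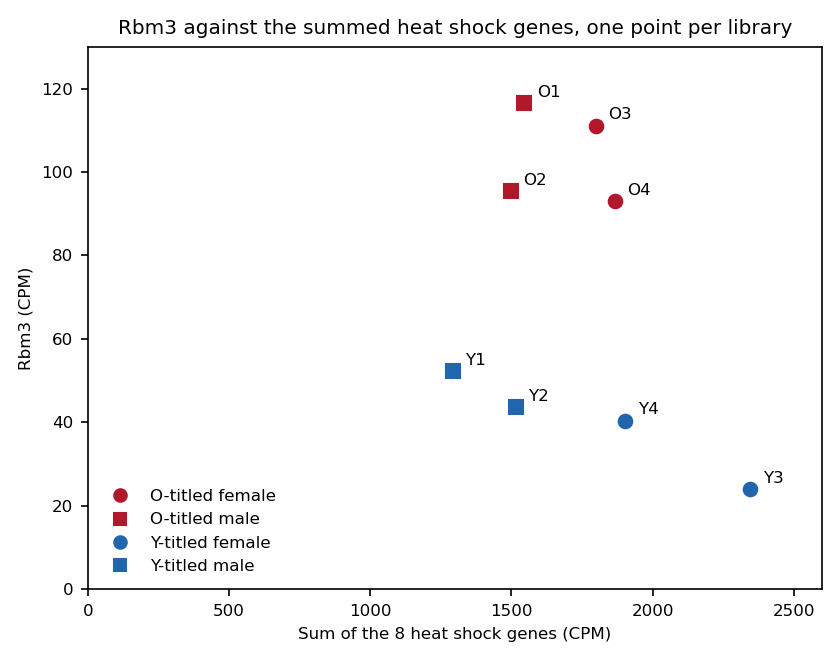
Rbm3 CPM on the vertical axis against the summed CPM of the 8 heat shock genes on the horizontal axis, 1 point per library, O-titled in red and Y-titled in blue, females as circles and males as squares. The heat shock sums overlap, at 1497 to 1865 CPM for O-titled, against 1293 to 2345 CPM for Y-titled libraries, while Rbm3 does not.

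The title difference was also fitted within each sex. Rbm3 was higher in O-titled than in Y-titled livers in both sexes, with log2 fold changes of 1.66 in females (SE 0.234, edgeR adjusted p = 0.000121) and 1.13 in males (SE 0.224, edgeR adjusted p = 0.0109). Hsp90aa1 was lower in O-titled females, at 104 CPM, against 181 CPM in Y-titled females, a log2 fold change of -0.80 (SE 0.171, edgeR adjusted p = 0.00663). In males it averaged 99.1 CPM in the O-titled and 89.1 CPM in the Y-titled pair, a log2 fold change of 0.16 (SE 0.187, edgeR adjusted p = 0.860). The difference between the sexes in this change, -0.96 (SE 0.253), had an unadjusted edgeR p of 0.0011 and an adjusted p of 0.126, so it did not pass. Cirbp had log2 fold changes of 1.11 in females (SE 0.499, edgeR adjusted p = 0.262) and -0.11 in males (SE 0.384, edgeR adjusted p = 0.973), and its difference between the sexes, 1.22, did not pass either (edgeR adjusted p = 0.644).

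In females, 2 of the 10 genes were thus called, Rbm3 higher and Hsp90aa1 lower, against 5.47% of all tested genes, 2.74% in each direction. In males 1 was called, Rbm3, against 1.26% of all tested genes, 0.636% higher and 0.621% lower. For the difference between the sexes 0 of 10 were called in edgeR, DESeq2 and limma voom, against 0.385% of all tested genes in edgeR. An unadjusted edgeR p under 0.05 was found there for 1 of the 8 heat shock genes, Hsp90aa1, against 8.46% of all tested genes. Each sex and title held 2 livers, so leaving out a library left 1, which was assumed to vary like the other groups. Under this, the call on Hsp90aa1 in females was lost without O-titled replicate 4 (adjusted p = 0.0560), Y-titled replicate 3 (0.0657) or Y-titled replicate 4 (0.0532), and that on Rbm3 in males without O-titled replicate 1 (0.254), Y-titled replicate 1 (0.0983) or Y-titled replicate 2 (0.107). The log2 fold changes in these fits were -0.74, -0.80 and -0.80 for Hsp90aa1 and 0.95, 1.31 and 1.04 for Rbm3, in the same order.

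**Figure D3:**
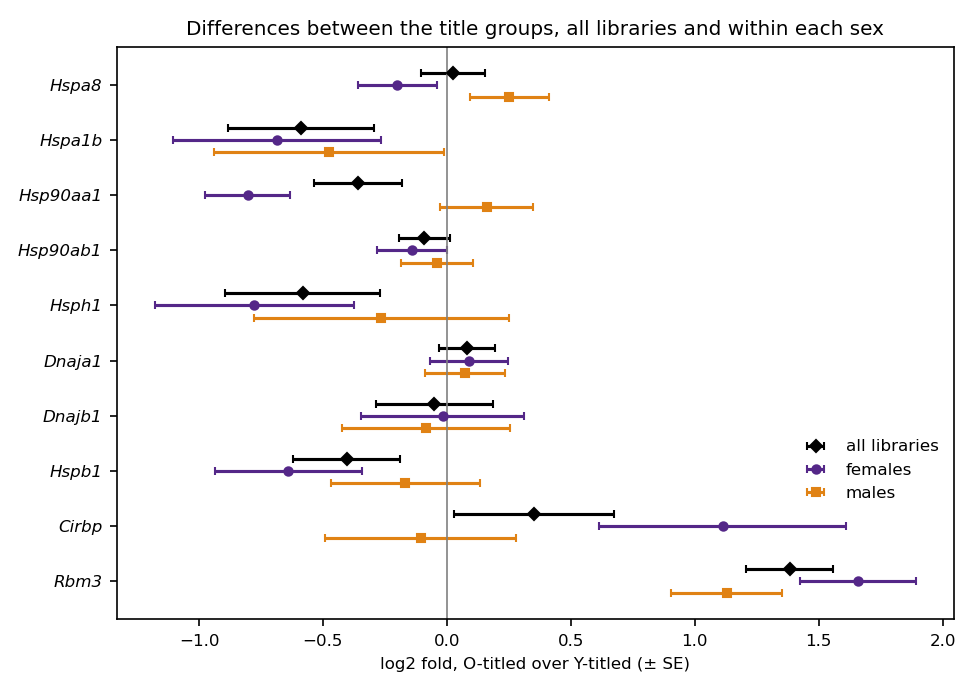
Log2 fold change (± SE) of O-titled over Y-titled livers on the horizontal axis for each of the 10 genes, over all libraries (black diamonds), in females (purple circles) and in males (orange squares); 0 means equal levels. Rbm3 lies right of 0 in all 3 fits, at 1.38, 1.66 and 1.13, and Hsp90aa1 lies at -0.80 in females and 0.16 in males.

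Sex was the other comparison the samples allow. Hspa8 was higher in females than in males, at 997, 1024, 1341 and 980.2 CPM in females, against 849, 729.5, 621 and 709 CPM in males. Every female liver lay above every male liver. The means were 1085 ± 172 CPM in females and 727 ± 94.1 CPM in males (SD, n = 4 each), with a log2 fold change of 0.58 (SE 0.129, edgeR adjusted p = 0.0180). It was the 1 gene of 10 called, against 2.96% of all tested genes, 1.81% higher and 1.15% lower. The call was lost without O-titled replicate 2 (adjusted p = 0.0627), Y-titled replicate 1 (0.116), Y-titled replicate 2 (0.0571) or Y-titled replicate 3 (0.0739).

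Some cell type markers also moved with sex. Beside them, 2.96% of all tested genes were called between the sexes, 1.81% higher and 1.15% lower in females. In 3.15% of all tested genes every female lay above every male. Of 5 tested erythroid markers 1 was called, Alas2, the erythroid enzyme of haem synthesis, at 9.80 to 21.7 CPM in females, against 84.6 to 129 CPM in males, while the sum of the 5 overlapped, at 1701 to 2774 CPM in females, against 2147 to 4659 CPM in males. Of 7 hepatocyte markers 1 was called, Serpina1c, at a log2 fold change of -0.57, and the sums were 72721 to 119581 CPM in females, against 80438 to 102806 CPM in males. Uncalled Vsig4 of the Kupffer cell list had 47.6 to 71.2 CPM in females, against 33.7 to 47.3 CPM in males, and uncalled Spp1 of the cholangiocyte list had 24.5 to 36.5 CPM in females, against 13.9 to 21.5 CPM in males. The summed Kupffer cell and cholangiocyte lists overlapped between the sexes, at 499 to 1053 and 26.9 to 44.1 CPM in females, against 386 to 1046 and 17.8 to 27.3 CPM in males. Vsig4 and Spp1 were named after their values were seen, and the part of cell composition in the sex difference of Hspa8 was not tested.

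Hsp90ab1 was the other gene whose sexes did not overlap, at 423 to 499.8 CPM in females, against 366 to 412 CPM in males, with a log2 fold change of 0.23 that did not pass (SE 0.103, edgeR adjusted p = 0.367). Non-overlapping ranges with females higher thus held for 2 of the 10 genes, against 3.15% of all tested genes. In the fit all 8 heat shock genes had a positive log2 fold change of females over males, with a median of 0.32 beside -0.0015 over all tested genes. Of the 8, 4 had an unadjusted edgeR p under 0.05, against 12.3% of all tested genes. Mean CPM did not lean to females in every gene. Dnajb1 averaged 22.9 CPM in females against 23.8 in males among O-titled livers, and 23.2 against 26.0 among Y-titled livers. Hspb1 averaged 21.1 CPM in females against 25.7 in males among O-titled livers, and 33.2 against 25.7 among Y-titled livers. Heat shock genes not called included Hsp90aa1 at 0.56 (SE 0.177, edgeR adjusted p = 0.132) and Hsph1 at 0.94 (SE 0.317, edgeR adjusted p = 0.181). Both cold-inducible genes had negative log2 fold changes, -0.73 for Cirbp (SE 0.320, edgeR adjusted p = 0.346) and -0.28 for Rbm3 (SE 0.170, edgeR adjusted p = 0.588), and neither was called.

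Across the 8 libraries, most pairs of heat shock genes had a positive correlation, and no pair passed correction. Rbm3 was left out here because its values fall into the title groups. Of 36 pairs among the other 9 genes, tested by exact permutation of log2(CPM + 0.5), 0 reached an adjusted p of 0.05, and 10 had an unadjusted p under 0.05. The 28 pairs of heat shock genes had a median Pearson r of 0.49, from -0.20 to 0.91, with 27 positive, beside 49.9% of all pairs of tested genes positive and a median of -0.0017 over them. After removing the mean of each sex and title, 22 of the 28 were positive, with a median of 0.57, beside 50.0% of all pairs. Cirbp against the 8 heat shock genes had a median r of -0.61, with 7 of 8 negative, but within sex and title 5 of the 8 were positive, with a median of 0.15, so the negative relation rests on differences between the sexes and title groups. The highest pair, Hsp90ab1 and Hsph1, had r = 0.905 (two-sided exact permutation p = 0.0028, adjusted p = 0.0637) and rho = 0.857. Without the 2 libraries farthest from the median of Hsp90ab1, r was 0.774, and after removing the mean of each sex and title it was 0.905. Cirbp and Hsp90aa1 had r = -0.866 (two-sided exact permutation p = 0.0111, adjusted p = 0.100) and rho = -0.619, but r was -0.309 without the 2 farthest libraries and -0.056 within sex and title, so that relation rests on the Y-titled females. All values share library depth and scaling.

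For Rbm3 the 5 tested genes with the most similar profile over the 8 libraries were Lrg1, Api5, Gas1, Prdx2 and Adipor1, with Pearson r from 0.955 to 0.968. Lrg1, a secreted glycoprotein, averaged 992 ± 49.9 CPM in O-titled livers, against 523 ± 159 CPM in Y-titled livers, with a log2 fold change of 0.95 (edgeR adjusted p = 0.00452). Gas1 was also called, at 1.09 (edgeR adjusted p = 0.0263), while Api5, Prdx2 and Adipor1 were not. These likenesses were picked as the highest and follow the title groups, so they are a description with no test. For Hspa8 the most similar gene was Stip1, the adaptor that links HSP70 to HSP90, with r = 0.957, followed by Nid1, Ets1, Nck1 and Eif2s3x down to 0.934. For Hsp90aa1 the 5 were Plpp5, Naa15, Selenok, Bdh1 and Hes1, from 0.951 to 0.902. For Cirbp they were Slc30a1, Ip6k1, Lzts3, Dtnbp1 and Eva1a, from 0.984 to 0.931.

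Long reads also place each count on a transcript. Rbm3 had reads on 6 of its 11 annotated transcripts, and the transcript with most reads, Rbm3-206, held 43.6% of them in O-titled and 43.2% in Y-titled livers, pooled over libraries. Rbm3-203 held 24.7% in O-titled and 25.6% in Y-titled livers, Rbm3-202 held 21.4% in O-titled and 14.8% in Y-titled livers, and Rbm3-204 held 8.82% in O-titled and 15.3% in Y-titled livers. In single libraries Rbm3-206 held 30.8% to 36.8% of reads in the 4 females, against 45.5% to 50.6% in the 4 males. This difference was picked after the values were seen and was not tested. The share of all transcripts that separate by sex was not computed. In Y-titled replicates 1 to 4 the shares rested on 42, 10, 8 and 16 reads of Rbm3-206. In both Y-titled females Rbm3-206 held the same share as Rbm3-203. The test of transcript usage between the title groups did not call Rbm3 (edgeR diffSpliceDGE adjusted p = 0.9998). Hspa8-201 held 73.3% of Hspa8 reads in O-titled and 75.1% in Y-titled livers, and Hsp90aa1-201 held 48.8% of Hsp90aa1 reads in O-titled and 50.4% in Y-titled livers. Of the 5 genes with at least 2 tested transcripts, Hspa8, Hsp90aa1, Dnaja1, Hspb1 and Rbm3, 0 were called, as were 0 of 1236 genes in all (0%). At an unadjusted p under 0.05 edgeR had 8 of the 1236 genes, none of them among these 5, and limma diffSplice called 0 with 37 at an unadjusted p under 0.05. Cirbp, Hsp90ab1 and Hspa1b each had reads on 1 transcript only, so their usage was not tested, and Hsph1 and Dnajb1 had fewer than 2 transcripts past the filter.

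**Figure D4:**
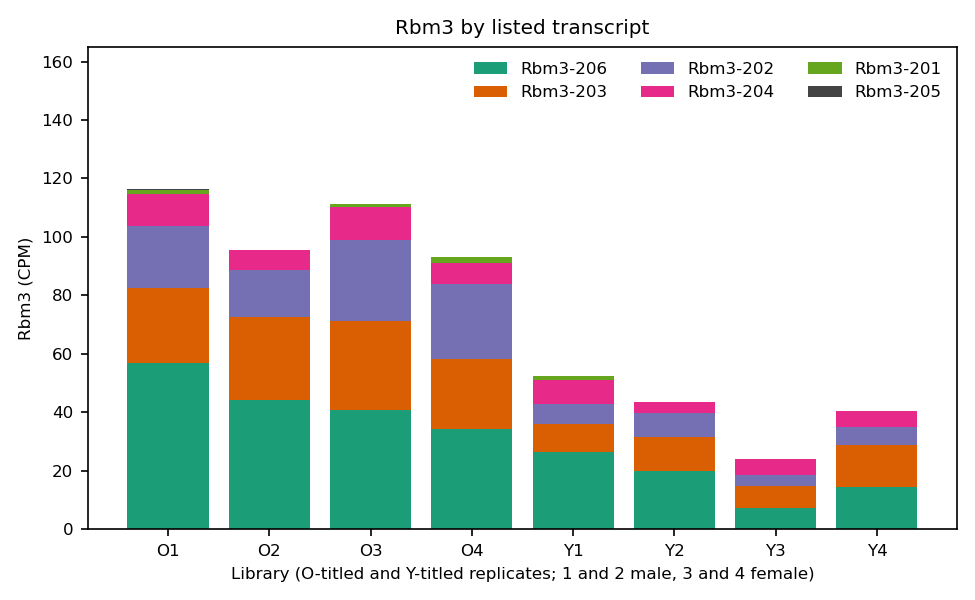
Rbm3 CPM in each library, stacked by transcript, with O-titled libraries left of Y-titled ones; replicates 1 and 2 are male and 3 and 4 female. The bars are 93.1 to 116 CPM high in O-titled and 23.9 to 52.2 CPM high in Y-titled libraries, and Rbm3-206 is the bottom segment of each bar.

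The wider chaperone system was described with 7 further lists, chosen by name, of which 49 of 65 genes were tested. Of these 49, 0 were called between O-titled and Y-titled livers by edgeR, DESeq2 or limma voom. Over all tested genes edgeR called 4.01%, and 16.2% had an unadjusted p of 0.05 or less. Unadjusted p under 0.05 was found for 1 of 4 other HSP70 and HSP110 genes, 0 of 10 other DNAJ genes, 1 of 2 other small heat shock genes, 1 of 17 co-chaperones, 0 of 8 subunits of TRiC, the cytosolic chaperonin, and 2 of 7 mitochondrial chaperones. The median log2 fold changes were -0.40, 0.04, 0.40, -0.07, -0.03 and -0.13 in the same order. The gene with the largest absolute change in each list was Hspa14 at -0.45, Dnajc2 at 0.39, Hspb6 at 0.42, Fkbp5 at -0.76, Cct3 at -0.29 and Grpel2 at -0.50. Among these, Fkbp5, a glucocorticoid-induced HSP90 co-chaperone, averaged 15.4 ± 9.33 CPM in O-titled livers, against 27.1 ± 16.1 CPM in Y-titled livers (SD, n = 4 each; edgeR adjusted p = 0.109). Uncalled genes of these lists whose ranges did not overlap were Hspb8, Hspa4, Trap1 and Cct3. Hspb8 had 176 to 185 CPM in O-titled livers, against 125 to 162 CPM in Y-titled livers. Hspa4 had 48.4 to 58.4 CPM in O-titled livers, against 58.5 to 69.3 CPM in Y-titled livers. Trap1 and Cct3 were also lower in O-titled livers. Among all tested genes 4.1% had ranges apart and higher and 4.62% lower. The heat shock factors were thinly read, with 41 reads of Hsf1 in O-titled and 28 in Y-titled livers and 35 reads of Hsf2 in O-titled and 47 in Y-titled livers. Both fell under the count filter, and Hsbp1, a binding protein of heat shock factor, was the 1 tested gene of that list, at 0.11 (edgeR adjusted p = 0.750).

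Between the sexes, 3 of the 17 tested co-chaperones were called, all higher in females, against 2.96% of all tested genes called and 1.81% higher (DESeq2 called 2 of the 17 and limma voom 3), and 0 genes of the 6 other lists by edgeR, DESeq2 or limma voom, with at most 1 gene of each at an unadjusted p under 0.05. They were Fkbp5, with 30.7 ± 13.1 CPM in females and 11.8 ± 5.26 CPM in males (log2 fold change 1.22, edgeR adjusted p = 0.0121), Chordc1, an HSP90 partner, with 40.9 ± 3.06 CPM in females and 20.2 ± 6.36 CPM in males (0.88, adjusted p = 0.0177), and Stip1, with 63.6 ± 11.7 CPM in females and 37.8 ± 5.64 CPM in males (0.69, adjusted p = 0.0364). Stip1 and Chordc1 did not overlap between the sexes and Fkbp5 did. Uncalled Ppid of this list and uncalled Cct5 of TRiC were also higher in every female than in every male. The uncalled Dnajb12 and Hspb6 were lower in every female. Ranges apart with females higher were found in 3.15% of all tested genes. The call on Stip1 was lost in DESeq2 (adjusted p = 0.0763), with libraries thinned to the smallest (0.135), and without O-titled replicate 2 (0.0844), Y-titled replicate 1 (0.214), replicate 2 (0.0855), replicate 3 (0.126) or replicate 4 (0.0878). That on Chordc1 was lost with thinning (0.0705) and without O-titled replicate 2 (0.0628), O-titled replicate 4 (0.0515) or Y-titled replicate 3 (0.0600), and that on Fkbp5 without O-titled replicate 4 (0.0578) or Y-titled replicate 3 (0.0681).

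**Figure D5:**
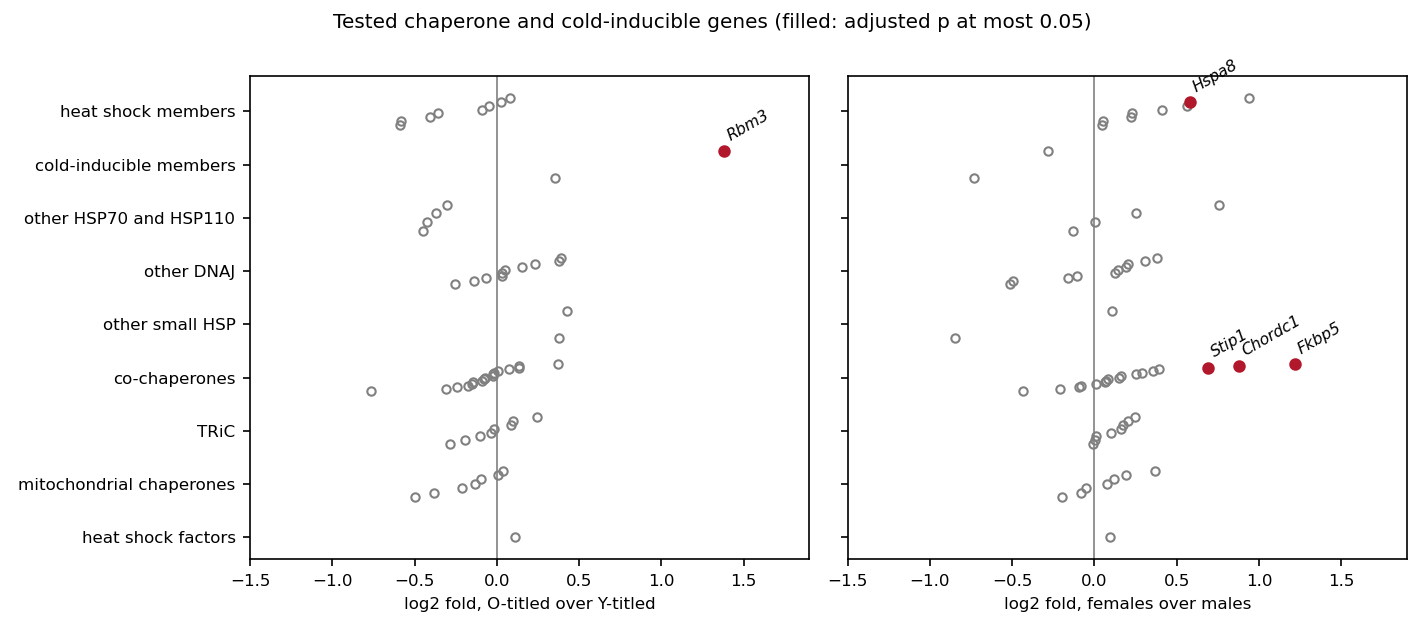
Log2 fold changes of all tested chaperone and cold-inducible genes by list, 1 point per gene, O-titled over Y-titled on the left and females over males on the right; filled points have an adjusted p of at most 0.05. On the left Rbm3, at 1.38, is the filled point; on the right Hspa8, Stip1, Chordc1 and Fkbp5 are filled, at 0.58, 0.69, 0.88 and 1.22.

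Some genes of the circadian clock, named here because the hour of collection is not given, also differed between the title groups. Of 13 tested clock genes, 6 were higher, 1 was lower and 6 were not called in O-titled against Y-titled livers, beside 4.01% of all tested genes called. DESeq2 called 8 of the 13 and limma voom 7. In edgeR 12 of the 13 had an unadjusted p under 0.05, against 16.2% of all tested genes, so most uncalled genes also leaned apart. Per2, a clock gene that also carries heat shock elements, had 13.4 ± 2.76 CPM in O-titled livers, against 2.66 ± 1.58 CPM in Y-titled livers (SD, n = 4 each), a log2 fold change of 2.06 (edgeR adjusted p = 0.00560). Per1, Nr1d2, Tef, Bhlhe40 and Usp2 were also higher, with log2 fold changes from 1.02 for Nr1d2 to 4.29 for Usp2, and Nfil3 was lower at -1.12. The part of sampling time in the difference of Rbm3 was not tested.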

How the data were processed

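The deposited files give the authors' read counts for each transcript as whole numbers, not normalized. Per the submitters' processing notes, minimap2 2.24, the build mm10 and DESeq2 were used, the last without a stated role. The counting tool and annotation are not given in the sources used here. Gene totals of these counts were tested in R 4.3.3 with edgeR 4.0.16: filterByExpr with a minimum count of 10 by title group, trimmed mean of M values scaling, robust quasi-likelihood test with sex as covariate, and Benjamini-Hochberg adjustment over all 6759 tested genes at 0.05. Differences within sex came from a model of 4 sex-by-title groups. DESeq2 1.42.0, limma 3.58.1 (voom, diffSplice), other filters and scalings, thinning, a replicate block and leaving out each library were the alternatives. Standard errors came from the fold and its F statistic. Positions and coding sequences are from GENCODE M21 on mm10.

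The members and lists were chosen with earlier results of these data known. Outside the 10 members, the text names genes called in a list, otherwise the 1 with the largest absolute change, Per2, and the 5 nearest profiles of Hspa8, Hsp90aa1, Cirbp and Rbm3, predicted genes left out. Hsf1, Hsf2, Hspa1a, Lyve1, Ttr, Hnf4a, Vsig4, Spp1 and single stellate cell markers are named for depth, identity or cell type. Ppid, Cct5, Dnajb12, Hspb6, Hspb8, Hspa4 and Trap1 are also named for ranges that did not overlap, after their values were seen. Floors of 3 reads cover counting error only.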

Additional observations from a re-analysis of the deposited data

Results flagged for a closer look

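The values of the 10 genes were checked for a library far from the other 3 of its title group, in 20 groups of 4, where chance marks about 1 group in 20. Hspa1b in O-titled replicate 3, at 9.55 CPM, lay far above the other O-titled livers, which had 6.53, 6.72 and 7.00 CPM; the value rests on 11 reads. Cirbp in O-titled replicate 4, at 8.40 CPM, lay far below the other O-titled livers, which had 13.1, 13.4 and 13.9 CPM; the value rests on 12 reads. Both libraries are female, and the part of counting error in these values was not tested.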

How the results depend on the processing

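Rbm3 was called between O-titled and Y-titled livers under all 17 alternatives, with a log2 fold change from 1.20 to 1.55 and a largest adjusted p of 0.00185, and it was the 1 member called in each. The genes called over the whole table, 271 as reported, were 600 with no count filter, 177 with a minimum count of 30, 144 with all libraries thinned to the smallest, 134 with no sex covariate, and 154 to 294 without one library at a time. Between the sexes, 200 genes were called as reported, 401 with no count filter, 121 with thinning, and 125 to 217 without one library. Members called there, 1 as reported, were 2 with library totals in place of scaling factors (Hspa8 and Hsp90aa1), 3 with no count filter (Hspa8, Hsp90aa1 and Hsph1), and 0 to 1 without one library, where the 1 was Hsp90aa1 without O-titled replicate 2, Hsph1 without Y-titled replicate 2 and Hspa8 otherwise. The difference between the sexes in the title contrast, 26 genes as reported, gave 100 with no count filter, 11 with a minimum count of 30, 16 with thinning and 8 to 45 without one library, and 0 members in each.

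Signs of uncalled log2 fold changes turned for Hsp90ab1 (0.0013) and Dnajb1 (0.050) with library totals, for Hspa8 with no sex covariate (-0.021), and without single libraries, which gave -0.063 to 0.165 for Hspa8 and -0.217 to 0.124 for Dnajb1. With thinning, adjusted p was 0.109 for Hsp90aa1 in females and 0.0918 for Rbm3 in males, so both calls were lost. Causes were not tested, apart from fewer reads or genes by construction.

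The replicate numbers are not stated to pair animals, and numbers 1 and 2 are male and 3 and 4 female in both groups. Deviations of same-numbered libraries from their title means had correlations from 0.220 to 0.411, which were -0.065 and -0.027 once sex was removed. A fit with the replicate block called 184 genes between the title groups, with 1 member, Rbm3, and 33 genes with 0 members for the difference between the sexes. The comparison of females with males has no such fit, since the numbers lie within sex. The planned exact test of members under the count filter, with its other pseudocount, was not run, because all 10 members passed the filter. Hspa1a, Hspa1b, Cirbp, Hsf1 and Hsf2 rest on few reads.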

Other observations

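Mean lengths of the reads assigned to each gene were also deposited. Hspb1 reads averaged 864 ± 22.5 nucleotides in O-titled and 824 ± 3.42 nucleotides in Y-titled livers (SD, n = 4 each), and the ranges did not overlap, at 846 to 895 and 820 to 828 nucleotides in O-titled and Y-titled livers. Rbm3 reads averaged 956 ± 35.5 nucleotides in O-titled and 1038 ± 116 nucleotides in Y-titled livers, with overlapping ranges. Hspa8 reads averaged 1476 ± 40.2 nucleotides in O-titled and 1551 ± 37.9 nucleotides in Y-titled livers, also overlapping. The lengths of the remaining members overlapped as well. Hspb1 was picked after the lengths of all 10 genes were seen, and the share of all genes with such ranges apart was not computed. These are descriptions with no test.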
